A study of Rattus norvegicus with 6 samples.

Results

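The Krüppel-like factors are zinc finger transcription factors, and 10 of them (Klf2, Klf3, Klf4, Klf5, Klf6, Klf7, Klf9, Klf10, Klf13 and Klf15) were followed here in primary Schwann cells stimulated with soluble Neuregulin1 (NRG1). They were found by gene symbol, and all 10 were among the 17327 genes of the count files. The RNA came from Schwann cells of the sciatic nerves of adult female Wistar rats, with no genetic change. Each of 3 independent cell preparations, here called cultures 1, 2 and 3 after the number in the sample labels, gave 1 mock sample and 1 NRG1 sample. All cells were grown in 10% FBS with forskolin, a compound that raises cAMP, and with 63 ng/mL glial growth factor, which the study's methods give as NRG1β1. All were then starved for 18 h in 2% FBS, still with 10 μM forskolin. The treated samples received 10 nM NRG1β1 for 6 h, and the mock samples the buffer of the ligand, with 1% BSA, for the same time. The question was which transcripts are regulated early by NRG1. Forskolin was present in both groups, so every value belongs to cells given a compound that raises cAMP.

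Krüppel-like factors carry C2H2 zinc fingers near the carboxyl terminus that bind GC-rich and CACCC sequences, while the rest of the protein differs between members and recruits coactivators or corepressors. Klf2, Klf4, Klf5, Klf6 and Klf7 are known mostly as activators with roles in cell identity, growth and injury responses. Klf3 represses through the CtBP corepressors, and Klf9, Klf10 and Klf13 through Sin3. Klf9 is also a target of thyroid hormone and glucocorticoids that takes part in oligodendrocyte differentiation, and Klf15 is a glucocorticoid target that controls amino acid metabolism.

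The 6 libraries held between 6821590 and 15475018 counts on genes. A level of 3 counts, used as the floor, equals 0.194 to 0.440 CPM, the counts of a gene scaled by the library's total on genes. The Schwann cell markers S100b, Sox10, Erbb3 and Ngfr were present in all 6 libraries, which does not show that other cells were absent. Both libraries of culture 1 stood apart from the other 4. The summed level of these 4 Schwann markers was 2783 and 2628 CPM in the mock and NRG1 samples of culture 1, and between 5189 and 6753 CPM in cultures 2 and 3. S100b itself was lower with NRG1 in each culture (log2 fold change -0.58, edgeR adjusted p = 0.0088). Sox10, Erbb3 and Ngfr did not pass the same test. The summed level of 6 fibroblast markers was 50716 and 54719 CPM in culture 1, against 13773 to 22124 CPM in the other cultures, and that of 6 pericyte or smooth muscle markers 3034 and 3069 CPM, against 231 to 411 CPM. In cultures 2 and 3 nearly all of the fibroblast sum came from Col1a1. Dcn, a fibroblast proteoglycan, had 4574 and 3203 counts in culture 1 and 0 counts in the other 4 libraries, and Acta2, smooth muscle actin, was at 1763 and 1784 CPM in culture 1 and at 0.45 to 4.54 CPM elsewhere. In bulk RNA, fewer cells of a type and less RNA per cell cannot be told apart.

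The promoters of the 3 members with the smallest p-values for NRG1 are printed first, because Klf7 rose with NRG1 and the other two, Klf9 and Klf15, were lower with NRG1 in cultures 2 and 3. RefSeq sequences were matched by symbol for 7 of the 10 members, and Klf2, Klf10 and Klf13 had no match. The 250 bases before each start site are given 5′ to 3′ on the strand of the gene, in the GRCr8 build, while the counts were made on the rn5 build. Capitals mark TGACG or its reverse complement CGTCA, the core of the cAMP response element, shown because forskolin was in every medium. Klf7 lies at chr9:73020057-73020306 on the minus strand, Klf9 at chr1:230126396-230126645 on the plus strand and Klf15 at chr4:124522765-124523014 on the plus strand.
Klf7: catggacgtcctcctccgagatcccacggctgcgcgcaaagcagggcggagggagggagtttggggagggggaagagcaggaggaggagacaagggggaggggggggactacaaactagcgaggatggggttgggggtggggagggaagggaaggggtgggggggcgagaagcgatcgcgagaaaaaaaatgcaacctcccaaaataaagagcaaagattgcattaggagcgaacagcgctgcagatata
Klf9: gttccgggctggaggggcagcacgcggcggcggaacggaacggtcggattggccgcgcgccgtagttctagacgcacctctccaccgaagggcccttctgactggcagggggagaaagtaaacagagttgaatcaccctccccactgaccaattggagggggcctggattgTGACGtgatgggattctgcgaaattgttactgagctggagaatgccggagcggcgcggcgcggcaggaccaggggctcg
Klf15: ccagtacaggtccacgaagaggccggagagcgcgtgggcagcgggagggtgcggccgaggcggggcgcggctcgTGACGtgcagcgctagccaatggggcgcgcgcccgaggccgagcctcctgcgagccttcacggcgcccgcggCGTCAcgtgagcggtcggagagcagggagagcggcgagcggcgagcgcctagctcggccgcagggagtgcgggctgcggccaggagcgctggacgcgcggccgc
The core matched 1 time in Klf9, 2 times in Klf15 and 0 times in Klf7. Of the other 4 matched members, whose promoters are not printed, Klf5 held it 1 time and Klf3, Klf4 and Klf6 held it 0 times. Over the 7479 genes tested that had a promoter in the same table, 30.3% held it in these 250 bases on either strand. The CACCC box, searched as CACCC on both strands, matched 2 times in Klf7, 1 time in Klf9 and 1 time in Klf15, and was found in 56.4% of the promoters. The CCAAT box, searched as CCAAT on both strands, matched 3 times in Klf9, 1 time in Klf15 and 0 times in Klf7, with 35.7% of the promoters holding it. The GC box, GGGCGG on either strand, matched 1 time in Klf7 and 0 times in the other two, against 61.5% of the promoters. The E-box CACGTG, held by 8.5% of the promoters, matched 1 time in Klf15, where it overlaps the core nearer to the start. These matches are descriptions of the letters and not binding sites.

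NRG1 changed 1 of the 10 Krüppel-like factors, Klf7, which rose by a log2 fold change of 0.61, a fold of 1.52. No member fell past the test, though Klf9 and Klf15 were lower at an unadjusted p under 0.05, and none was past a log2 fold change of 1 in either direction. DESeq2 with the same design also called Klf7 up and no other member. A gene is called changed at an adjusted p of at most 0.01 in edgeR's quasi-likelihood test with the culture as a block, and regulated when its absolute log2 fold change is also over 1. Over the 9740 genes tested, 11.8% were changed, 6.31% higher and 5.51% lower, and 3.47% were regulated, 1.56% higher and 1.91% lower, so the share of the members lay near the background. All 10 members passed the filter on low counts. Their median log2 fold change was 0.04, and that of all genes tested was -0.03. The mock and NRG1 samples overlapped in CPM for all 10 members, while they did not overlap for 19.2% of all genes tested. The NRG1 sample lay on the same side of its mock sample in the 3 cultures for 4 members, against 55.9% of all genes tested. Those 4 were Klf5, Klf7 and Klf10, higher in each, and Klf15, lower in each. With the 6 samples treated as unpaired, Klf7 had an edgeR adjusted p of 0.33, and no gene at all was changed in edgeR (1334 had an unadjusted p under 0.05), while DESeq2 called 111 genes higher and 67 lower. Without culture 1 there were 3 changed members, Klf7 and in the lower direction Klf9 and Klf15, where 12.0% of the 9926 genes then tested were changed. That fit, also used below, rests on the pairs of cultures 2 and 3 alone. It leaves out the pair in which Klf9 and Klf15 were nearly level, so their fall was bound to be larger in it. Its variances were mostly borrowed across genes, so its p-values hardly measure a gene's spread between cultures 2 and 3. The smallest edgeR adjusted p of any gene was 5.8e-48 in that fit, against 6.1e-08 with all 6 samples. Without culture 2 or without culture 3, neither Klf9 nor Klf15 was changed.

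**Figure D1:**
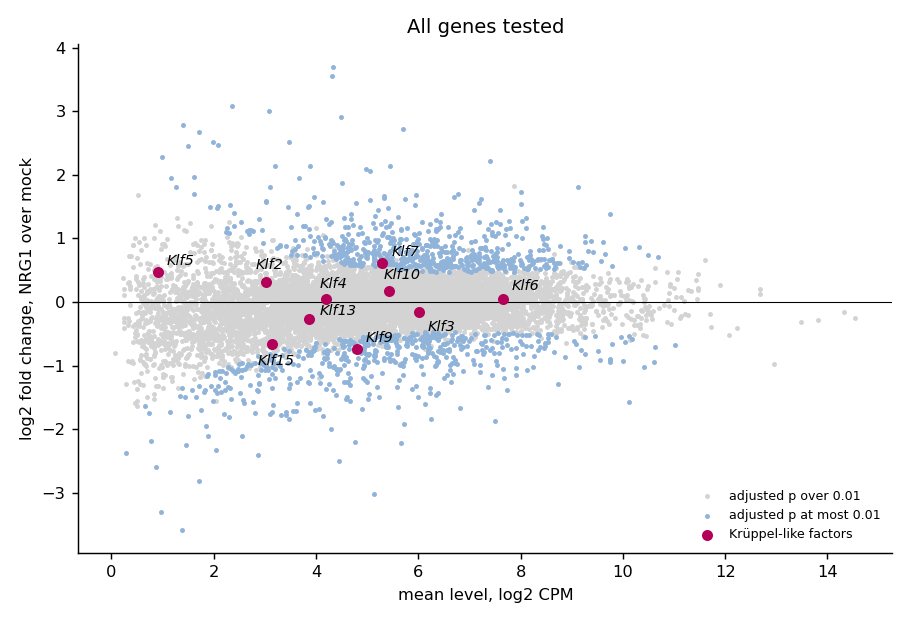
Mean level (log2 CPM) and log2 fold change of NRG1 over mock for the 9740 genes tested, with the 10 Krüppel-like factors in magenta and changed genes in blue. Of the 10, only Klf7, at a log2 fold change of 0.61, lies among the changed genes.

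Klf7 is known for axon outgrowth and the development of sensory neurons. It was counted at 37.7, 27.3 and 27.4 CPM in mock samples 1, 2 and 3 and at 53.5, 37.0 and 48.9 CPM in the NRG1 samples of the same cultures. Every NRG1 sample was above its own mock sample, although mock sample 1 was slightly above NRG1 sample 2. The mean of the mock samples was 30.8 ± 5.98 CPM (SD, n = 3) and rose with NRG1 to 46.4 ± 8.53 CPM (SD, n = 3), and the log2 ratios were 0.50, 0.44 and 0.83 in cultures 1, 2 and 3. The fitted log2 fold change was 0.61 (standard error 0.14, 95% interval 0.31 to 0.90, edgeR adjusted p = 0.0058). Without culture 3, which had the largest ratio, it was 0.49 and no longer past the test (edgeR adjusted p = 0.086).

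Klf9 stood out by its difference between cultures. It had 361 and 380 counts, or 46.9 and 49.0 CPM, in the mock and NRG1 samples of culture 1, and there NRG1 and mock were nearly level. It was at 28.3 CPM in mock and 11.1 CPM in NRG1 sample 2, and at 22.1 CPM in mock and 10.1 CPM in NRG1 sample 3. The log2 ratios were thus 0.06, -1.34 and -1.12, and cultures 2 and 3 moved together while culture 1 did not follow. Over the 3 cultures the log2 fold change was -0.74 (standard error 0.22, 95% interval -1.21 to -0.28), with an edgeR adjusted p of 0.024, over the threshold of 0.01. Without culture 1 it was -1.23 (standard error 0.22, edgeR adjusted p = 1.6e-06), which is past both thresholds. As given above, a p-value of that fit hardly measures the spread between cultures 2 and 3. Klf9 did not pass without culture 2, at -0.46, or without culture 3, at -0.55 (edgeR adjusted p = 0.14 for each). The difference in response between culture 1 and the others was not tested. Some markers of other cell types had ratios of the same kind. Those of the fibroblast marker Col3a1 were 0.04, -1.57 and -1.41 in cultures 1, 2 and 3 (edgeR adjusted p = 0.012 over the 3), and those of the pericyte marker Pdgfrb 0.02, -0.80 and -0.51. Acta2 had 0.02, -1.50 and -0.62, with 7 to 31 counts a library in cultures 2 and 3. Cspg4, of the same list, had 0.19, -1.06 and -0.24, with 19 to 66 counts there. Others of the same lists had different ratios. They were 0.18, -0.66 and -0.01 for Col1a1, and -0.33, -0.51 and 0.15 for Myh11. Pdgfra had -0.08, 1.66 and 0.97, with 1 to 25 counts a library in cultures 2 and 3. The summed smooth muscle and pericyte markers went from 411 to 235 CPM in culture 2 and from 327 to 231 CPM in culture 3. The summed fibroblast markers went from 22124 to 13773 CPM and from 14332 to 13940 CPM. Nearly all of that sum was Col1a1, which went from 21294 to 13492 CPM in culture 2 and from 13880 to 13768 CPM in culture 3. Dcn and Lum had 0 counts in both cultures. Without culture 1, 1 of 2 tested fibroblast markers and 1 of 4 tested pericyte or smooth muscle markers were changed, both lower. In that fit 6.05% of all genes tested were changed and lower. The part of these cells in the values of Klf9 and Klf15 was not tested.

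Klf15 was also nearly level in culture 1 and lower with NRG1 in cultures 2 and 3, at a lower number of counts. It was at 13.1, 10.7 and 8.03 CPM in mock samples 1, 2 and 3 and at 12.4, 4.52 and 4.65 CPM in the NRG1 samples. The lowest values were those of NRG1 samples 2 and 3, and the log2 ratio was -0.08 in culture 1, -1.21 in culture 2 and -0.76 in culture 3. The fitted log2 fold change was -0.65 (standard error 0.23, 95% interval -1.15 to -0.16, edgeR adjusted p = 0.054). Without culture 1 it was -0.99 (standard error 0.29, edgeR adjusted p = 0.0054), past the test on p and just short of a log2 fold change of -1. Without culture 2 it was -0.40 and without culture 3 -0.58, neither past the test (edgeR adjusted p = 0.24 and 0.23).

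**Figure D2:**
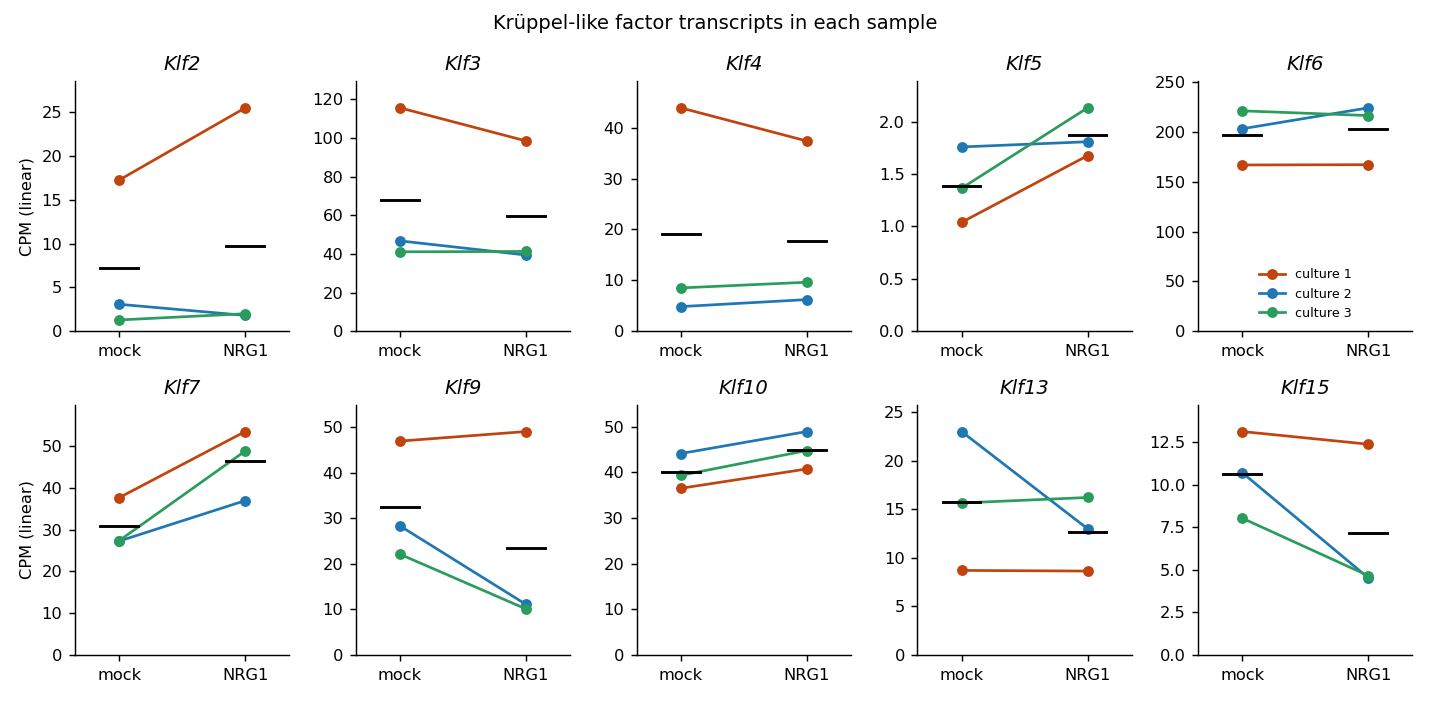
CPM (linear axis) of each Krüppel-like factor in the mock and NRG1 samples, with a line for each of the 3 cultures and a black bar for the mean of 3 samples. Klf7 rises along all 3 lines, Klf9 and Klf15 drop along the lines of cultures 2 and 3 and are nearly level in culture 1, and Klf2, Klf3 and Klf4 are highest in both samples of culture 1.

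Among the other members known as activators, Klf6, an early responder to tissue injury, had the highest counts and hardly moved. Its mock samples were at 166.8, 203.2 and 221.1 CPM and its NRG1 samples at 167.1, 224.2 and 216.4 CPM, and the groups overlapped nearly completely. The log2 fold change was 0.04 with a 95% interval of -0.21 to 0.29, a range that excludes a change of 1 on this scale in either direction. Klf4, a factor of epithelial differentiation and of pluripotency, had a log2 fold change of 0.04 (95% interval -0.32 to 0.41). Its log2 ratios were -0.23 in culture 1 and 0.35 and 0.17 in cultures 2 and 3. Klf2, which keeps endothelial cells and T cells quiescent, had ratios of 0.56, -0.71 and 0.57 and a fitted value of 0.31 (95% interval -0.27 to 0.89). Only 16 to 31 counts lay behind its values in cultures 2 and 3, so its changes there are imprecise. Klf5, a growth-promoting factor of epithelia and smooth muscle, was counted between 8 and 33 times in a library. Its mock mean was 1.39 ± 0.36 CPM (SD, n = 3), and the mean with NRG1 was 1.87 ± 0.23 CPM (SD, n = 3), near the floor in both. At this depth its log2 fold change of 0.47 (95% interval -0.29 to 1.23) could not be told from none.

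The members known as repressors were not changed either. Klf10, first described as an early gene of TGF-beta, was the steadiest of the 10 across cultures. It was at 36.5, 44.1 and 39.3 CPM in mock samples 1, 2 and 3 and at 40.7, 48.9 and 44.8 CPM in the NRG1 samples. Each NRG1 sample was slightly above its mock sample, with log2 ratios of 0.16, 0.15 and 0.19, and the fitted log2 fold change of 0.17 (95% interval -0.10 to 0.44) did not pass the test (edgeR adjusted p = 0.36). Klf3 had a log2 fold change of -0.15 (95% interval -0.41 to 0.11). Klf13, a regulator of chemokine transcription in T cells, had -0.26 (95% interval -0.69 to 0.16). The Klf13 value rested on culture 2, where it went from 23.0 CPM in mock to 13.0 CPM in NRG1, while the ratios of cultures 1 and 3 were -0.01 and 0.05.

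**Figure D3:**
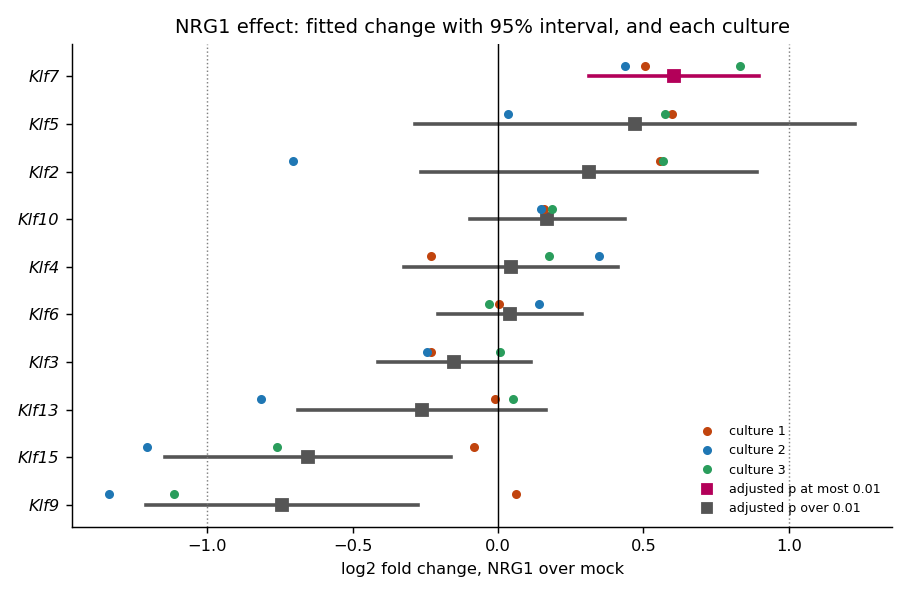
Fitted log2 fold change of NRG1 over mock (squares) with its 95% interval (bars) for each Krüppel-like factor, and the log2 ratio of each culture (dots). The interval of Klf7 lies above 0 and its adjusted p passes 0.01, while for Klf9 and Klf15 the dot of culture 1 lies apart from the other two.

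More members passed the test between cultures than the test of NRG1 against mock. In the same fit, 4 of the 10 members differed between cultures at an adjusted p of at most 0.01, namely Klf2, Klf3, Klf4 and Klf9, where 23.4% of all genes tested did so. For 8 of the 10 the range of the 3 culture means on the log2 scale was larger than the change with NRG1, the exceptions being Klf5 and Klf7, and this was so for 73.7% of all genes tested. These are unlike measures, since a range of 3 means tends to be larger than a fitted difference between groups. The median of that range was 1.01 over the members and 0.46 over all genes tested. Culture 1 had the highest mean for 6 of the 10 members, against 36.6% of all genes tested.

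Klf2 had the widest spread, with 17.3 and 25.5 CPM in the mock and NRG1 samples of culture 1 and between 1.28 and 3.08 CPM in the other 4 libraries. On the log2 CPM scale, culture 1 lay 9.83-fold above the mean of cultures 2 and 3 (edgeR adjusted p between cultures = 2.0e-07). Klf4 was at 43.9 and 37.4 CPM in culture 1 and between 4.84 and 9.63 CPM elsewhere, a 5.61-fold difference (edgeR adjusted p between cultures = 6.7e-08). Neither gene overlapped between culture 1 and the others. Klf3 was at 115.6 and 98.5 CPM in culture 1 and between 39.5 and 46.8 CPM in the other libraries, which is 2.53-fold (edgeR adjusted p between cultures = 2.1e-06). Klf9 was 2.92-fold higher in culture 1 (edgeR adjusted p between cultures = 0.00013).

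Klf15 and Klf13 lay just outside the threshold, in opposite directions. Klf15 was 1.92-fold higher in culture 1 (edgeR adjusted p between cultures = 0.0104), and for Klf13, at 8.71 and 8.64 CPM in culture 1 and 13.0 to 23.0 CPM elsewhere, the ratio of culture 1 to the others was 0.53 (edgeR adjusted p between cultures = 0.016). Klf5, Klf6, Klf7 and Klf10 had between 1.20 and 1.41-fold between their highest and lowest culture, and none of them passed this test. Without culture 1, no member passed edgeR's test between the other two cultures, with adjusted p-values from 0.18 to 0.99. Culture 1 was also the one with lower Schwann markers and higher fibroblast and smooth muscle markers, as given above, and the part of these cells in the levels of Klf2, Klf3, Klf4 and Klf9 was not tested.

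**Figure D4:**
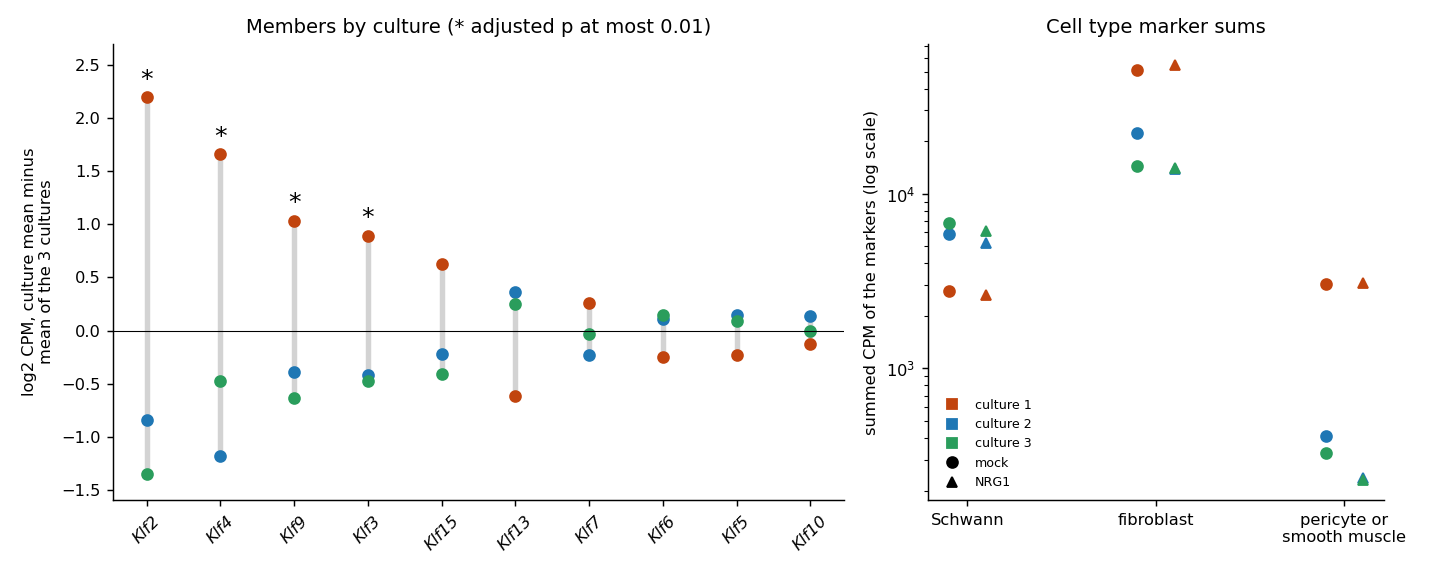
Left, mean log2 CPM of each culture minus the mean of the 3 cultures for each Krüppel-like factor, with stars at an adjusted p between cultures of at most 0.01. Right, summed CPM (log axis) of the 4 Schwann markers, 6 fibroblast markers and 6 pericyte or smooth muscle markers in every sample. Culture 1 is high for Klf2, Klf4, Klf9 and Klf3 and for the fibroblast and smooth muscle markers, and low for the Schwann markers.

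Klf2 and Klf4 are abundant in endothelial cells, so endothelial markers were examined too. Their summed level was 9.35 and 5.80 CPM in culture 1 and 7.37 to 14.95 CPM in the other libraries, nearly all of it from Tek, and it was not higher in culture 1. Thbd and Eng, which are not on that list and are given below, were counted almost only in culture 1. The part of endothelial cells in the levels of Klf2 and Klf4 was not tested. Pecam1, Cdh5 and Cldn5 had 0 counts in all 6 libraries, while Kdr and Tie1 had at most 4. A count of 0 can also be a gene that the counting missed in these files. Col1a2 had 2 counts in all 6 libraries together while Col1a1, its partner chain in type I collagen, was at 13492 CPM or more, and Mapk7, the broadly expressed kinase ERK5, had 0 counts. The 6 macrophage markers summed to between 3.29 and 10.0 CPM, with Ptprc at 0 counts.

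The genes whose levels were most like those of the 3 members above were found by Pearson's r of log2 CPM over the 6 samples, which share the 3 cultures. For Klf7 they were Slit3 (r = 0.991), Jade2 (r = 0.984) and Dlc1 (r = 0.983). For Klf9 they were RGD1311756 (r = 0.996), Dab2 (r = 0.996) and Mettl20 (r = 0.995), and for Klf15 Ttc17 (r = 0.997), Hspa1b (r = 0.995) and again Mettl20 (r = 0.993). These correlations include the difference between culture 1 and the rest and have no p.

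Of the rest of the family and the related Sp factors, 13 of 17 listed genes were in the files and 6 passed the filter. Among these 6, Klf11 fell and none rose. For this and the lists below, the share over all genes tested was 11.8% changed, 6.31% higher and 5.51% lower. No list was tested as a set. Klf11, a close relative of Klf10 that also recruits Sin3, was at 28.7, 26.5 and 35.5 CPM in mock samples 1, 2 and 3 and at 19.2, 11.5 and 18.3 CPM in the NRG1 samples. All mock samples were above all NRG1 samples. The log2 fold change was -0.90 (standard error 0.16, 95% interval -1.24 to -0.57, edgeR adjusted p = 0.0011), and without culture 1 it was -1.06. It did not pass the test between cultures (edgeR adjusted p = 0.096). The other 5 tested genes, Klf12, Klf16, Sp1, Sp2 and Sp4, had log2 fold changes between -0.64 and 0.38, and the median of the 6 was -0.34. Klf14, Sp8 and Sp9 had 0 counts in every library. In the fit without the culture as a block, Klf11 had an edgeR adjusted p of 0.22, and none of the list genes named from here on passed either.

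Of 10 tested cofactor genes 1 was changed, near the share over all genes tested. Ctbp2, which encodes a corepressor bound by Klf3, rose from 67.8, 52.8 and 72.0 CPM in mock samples 1, 2 and 3 to 100.8, 110.1 and 141.8 CPM in the NRG1 samples. The groups did not overlap, and the log2 fold change was 0.88 (standard error 0.13, edgeR adjusted p = 0.00029). Its paralogue Ctbp1 had 0.17, and Sin3a and Sin3b had -0.03 and 0.28, none of them past the test. The median of the 10 was 0.07.

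Among 7 tested ubiquitin ligases and related enzymes that act on Krüppel-like factors, 1 rose and 2 fell. Wwp1, a ligase of Klf2 and Klf5, fell from 66.3, 108.5 and 87.1 CPM to 46.8, 61.6 and 58.9 CPM, with no overlap between the groups and a log2 fold change of -0.62 (edgeR adjusted p = 0.0024). Smurf1, a ligase of the same family, rose by 0.53 on the log2 scale (edgeR adjusted p = 0.0060), but without culture 1 it had an edgeR adjusted p of 0.044. Fbxo32, the F-box protein atrogin-1, fell by 1.46 on the log2 scale (standard error 0.21, edgeR adjusted p = 0.00023). It was at 54.6, 18.6 and 15.1 CPM in mock and 29.8, 4.41 and 4.46 CPM in NRG1 samples 1, 2 and 3. As with Klf9, its level was highest in culture 1 and its ratios were larger in cultures 2 and 3, at -2.03 and -1.71, than in culture 1, at -0.87, though it fell in all 3.

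Since Klf9 and Klf15 are known glucocorticoid targets, the receptor gene and other genes of that response were counted. The part of this response in the values of Klf9 and Klf15 was not tested. Of 9 tested, 2 rose and 2 fell, with a median log2 fold change of -0.38. Fkbp5 and Fkbp4, co-chaperones of the steroid receptors, rose by 0.70 and 0.69 on the log2 scale (edgeR adjusted p = 0.0011 and 0.0012). Per1, a circadian repressor, fell by 0.78 on the log2 scale (edgeR adjusted p = 0.0053). Pdk4, a kinase that inhibits pyruvate dehydrogenase, had a log2 fold change of -1.73 (edgeR adjusted p = 0.0092), at only 4 to 41 counts a library. Cdkn1c was lower in each culture, with -0.58, and did not pass (edgeR adjusted p = 0.051). Tsc22d3, which encodes the glucocorticoid-induced leucine zipper protein, had -0.56, just short of the threshold (edgeR adjusted p = 0.0101), and the receptor gene Nr3c1 had -0.38 (edgeR adjusted p = 0.038). Sgk1, a kinase of ion transport, lay as near to the threshold in the other direction, with 0.52 (edgeR adjusted p = 0.0108), higher in the 3 cultures and with no overlap between the groups. Without culture 1 it had 0.62 (edgeR adjusted p = 0.0054), and 3 of 9 tested genes of the list were then higher and 2 lower. In that fit 12% of all genes tested were changed.

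In the TGF-beta pathway, to which Klf10 belongs, 2 of 9 tested genes rose and none fell, with a median of 0.16. The ligand gene Tgfb1 rose by 0.65 on the log2 scale (edgeR adjusted p = 0.0019) and the signal transducer Smad3 by 0.57 (edgeR adjusted p = 0.0041). Without culture 1, Smad3 had an edgeR adjusted p of 0.016 and Tgfb1 still passed. For the ERK5 and MEF2 pathway upstream of Klf2 and Klf4, 0 of 4 tested genes passed edgeR's test, also at an unadjusted p under 0.05, with log2 fold changes from -0.24 to 0.16.

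**Figure D5:**
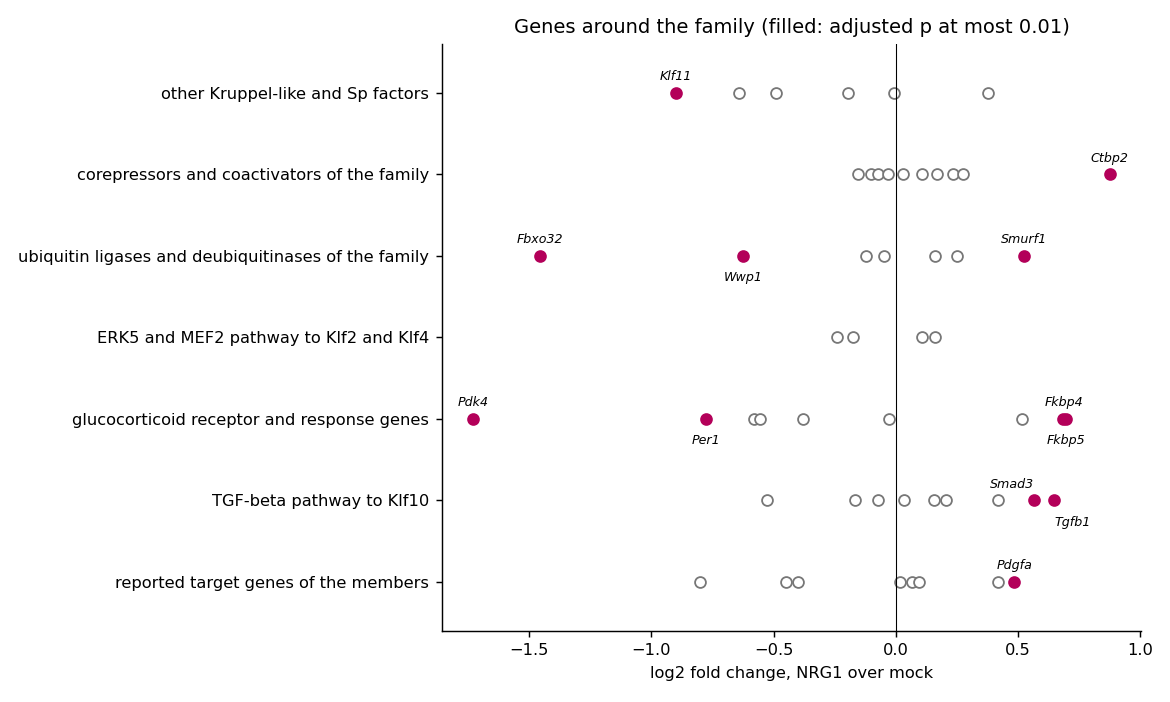
Log2 fold change of NRG1 over mock for every tested gene of 7 lists around the family, with changed genes filled and named. Klf11, Wwp1, Fbxo32, Per1 and Pdk4 are on the lower side and Ctbp2, Smurf1, Fkbp4, Fkbp5, Smad3, Tgfb1 and Pdgfa on the higher side.

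Among 17 genes reported as targets of the members in other tissues, 8 passed the filter, and 1 of them rose and none fell. Pdgfa, a growth factor gene known as a target of Klf5, rose by 0.49 on the log2 scale (standard error 0.12, edgeR adjusted p = 0.0091), and without culture 1 its edgeR adjusted p was 0.055. Acss2, a Klf15 target for acetyl-CoA synthesis, had -0.80 (edgeR adjusted p = 0.021) with all cultures. Without culture 1 it was -1.27 (edgeR adjusted p = 4.9e-06), and its log2 ratios were 0.01, -1.12 and -1.38 in cultures 1, 2 and 3. Bcat2 and Prodh, other Klf15 targets, had 0.07 and -0.40 with all cultures and did not pass.

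Several of the targets that did not pass the filter were counted almost only in culture 1. Thbd, the anticoagulant receptor thrombomodulin and a known Klf2 target, had 4459 and 3734 counts in the mock and NRG1 samples of culture 1, and 0, 0, 0 and 1 counts in the other libraries. Eng, which encodes the TGF-beta coreceptor endoglin and is a known Klf6 target, had 1802 and 2160 counts in culture 1 and at most 4 elsewhere. Plau, the urokinase gene, had 362 and 348 counts there and at most 3 elsewhere. S1pr1, the sphingosine phosphate receptor controlled by Klf2 in T cells, had 78 and 35 counts in culture 1 and 1 to 5 counts in the others. Klf2 and these 4 genes were all highest in the same pair of libraries, in which Dcn and Acta2 were also high. The part of other cell types in them was not tested. Other genes did not share the pattern. Klf6 was lowest in that pair, at 166.8 and 167.1 CPM. Nos3, also on the list of targets, had 0 and 1 counts in the mock and NRG1 samples of culture 1 and 0 to 4 elsewhere. The filter asks for about 10 counts in 3 libraries, so genes counted in culture 1 alone are not in the test of NRG1.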

How the data were processed

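RNA was sequenced from 3 mock and 3 NRG1-stimulated Schwann cell samples, after poly(A) selection. Per the labels, the platform was the Illumina NextSeq 500. The authors aligned to rn5 with TopHat 2.0.10 and deposited raw counts per RefSeq gene from htseq, with no normalization and no strand setting given in the sources used here. Alignments outside genes, ambiguous or not unique were kept out, and 47.0% to 49.9% of the entries of a file lay on genes.

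Genes were kept with filterByExpr at a minimum count of 10 (9740 of 17327) and normalized with TMM. The quasi-likelihood test of edgeR 4.0.16 in R 4.3.3 used the culture as a block, as in the study's paired design, and Benjamini-Hochberg adjustment over all genes tested. The same fit tested the cultures. CPM use the library total, log2 ratios a prior count of 2, and standard errors are the log2 fold change over the square root of F. The pairing comes from the labels and the methods, and deviations from group means correlated across genes with r of 0.67 to 0.91 for the same number and -0.80 to 0.51 for different ones. With 3 pairs an exact paired permutation test cannot go below p = 0.25, so only the fit across genes was used. No 2 libraries agreed within sampling noise (chi-square of 22.9 or more for each degree of freedom).

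Members and gene lists were chosen with earlier results of these data known. Named were the 10 members, genes of the lists past the test (at most 6 a list), and the 3 genes most like each of the 3 members with the smallest p. Other genes, named for comparison or as markers, were chosen after their values were seen. Genes of the lists with no row were not analysed here, and some list and marker genes are not reported here and were left out of counts, medians and sums. No gene lengths of the build were used, so levels are not compared between genes per length. DESeq2 1.42.0 and other settings served as alternatives. The scripts were tested on simulated counts.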

Additional observations from a re-analysis of the deposited data

How the results depend on the processing

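Over the 99 log2 fold changes of single members under other settings, 86 kept their direction and their side of the threshold. Klf7 was past it in all but the fits without culture 3 and without a replicate block. The setting with an adjusted p of at most 0.05 reuses the main fit, so no direction could change in it. Without the replicate block (6 samples unpaired), edgeR called 0 of the 10 Krüppel-like factors and 0 genes in all, with 1334 genes and 1 member at an unadjusted p under 0.05. DESeq2 without the replicate block, chosen after seeing the data, called 111 genes up and 67 down, of which 57 and 40 were past a log2 fold change of 1, and 0 members. Without the block Klf4 turned to -0.11, and to -0.087 in DESeq2. At an adjusted p of at most 0.05 there were 1124 genes up and 1136 down, 1 member up, 1 down (Klf9) and 7 differing between cultures. With no low-count filter, 857 genes and 1 member (Klf9) were down. With the fold change threshold inside the test, 13 genes were up and 9 down. Leaving out each replicate in turn gave 408 to 590 genes changed up and 253 to 601 down, 133 to 202 regulated up and 122 to 299 down. For the members it gave 0 to 1 changed up, 0 to 2 changed down, 0 to 1 regulated down (Klf9, without replicate 1) and 0 to 6 differing between cultures, the 0 being without replicate 1. Over the same fits the log2 fold change of Klf2 ran from -0.018 to 0.60 (negative without replicate 1), that of Klf4 from -0.042 to 0.26 (negative without replicates 2 and 3) and that of Klf13 from -0.45 to 0.049 (positive without replicate 2), none past the threshold. The cause of these changes was not tested. Depth limits Klf5 and, in cultures 2 and 3, Klf2.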
